A study of Mus musculus with 4 samples.

Results

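The genes that build and decorate the actin filament were followed in RNA-seq counts of lungs taken at embryonic day (E) 17 from wild-type and *Myh10* mutant mice. The 10 genes, chosen by symbol, were the cytoplasmic actins (*Actb*, *Actg1*), the transcription factor *Srf* and its actin-regulated coactivators (*Mkl1*, *Mkl2*), the 4 tropomyosins (*Tpm1* to *Tpm4*) and the calponin *Cnn2*. All 10 were found among the 45706 genes of the count table and among the 18763 genes that had a mean of at least 5 counts and were tested. RNA came from the left lobe of 2 wild-type and 2 Myh10L458R/L458R mice, all untreated, on the C57BL/6 strain and at E17. The L458R allele arose by N-ethyl-N-nitrosourea (ENU) mutagenesis, and changes an amino acid in the motor domain of non-muscle myosin heavy chain II-B, the protein of *Myh10*. It is a germline allele, so every cell type of the lung carries it, and all mutants descend from 1 mutagenized line. The lungs of a group are separate mice by the labels, which give neither litter nor sex.

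Actin monomers polymerize into filaments on which non-muscle myosin II pulls. MKL1 and MKL2, also called MRTF-A and MRTF-B, bind actin monomers and are held in the cytoplasm by them. When monomers are used up in filaments, MKL proteins enter the nucleus and join SRF on DNA elements called CArG boxes, next to genes of the cytoskeleton that include actin itself. A second class of SRF partners, the ternary complex factors (TCFs), links SRF to immediate early genes. Tropomyosins lie along the actin filament and set which myosins reach it, and calponins bind actin and tropomyosin. In the developing lung, cytoplasmic actins and *Tpm3* and *Tpm4* are used in most cell types, whereas *Tpm2* and the muscle forms of *Tpm1* belong to smooth muscle and myofibroblasts.

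On GRCm38, *Actb* (ENSMUSG00000029580) lies at chr5:142903115-142906754 and *Actg1* (ENSMUSG00000062825) at chr11:120345690-120348542, both on the minus strand. Their coding sequences have 1125 bases each and differ at 128 of them. The start of both, 90 coding bases read from the GENCODE transcripts, is shown because reads of these stretches can be told apart only at such differences. Capitals mark the 16 bases that differ.
Actb: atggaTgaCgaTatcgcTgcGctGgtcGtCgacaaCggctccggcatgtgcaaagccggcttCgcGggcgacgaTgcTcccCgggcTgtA
Actg1: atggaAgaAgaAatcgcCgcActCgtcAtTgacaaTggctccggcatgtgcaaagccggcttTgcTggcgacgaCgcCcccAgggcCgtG
Windows of 75 bases, the read length, were searched along the transcripts of each gene. Of the *Actb* windows 1.58% also occurred in a transcript of another gene, against 33.5% of the *Actg1* windows, most of them in processed pseudogenes such as *Gm12715* (29.4%) and *Gm8399* (16.4%). Of the 9 *Actg1* pseudogenes that share windows, 5 are in the table, with 9 to 16 reads in all per lung, or 0.219% to 0.266% of the *Actg1* count. Reads that aligned to several places were left out by the authors, so the *Actg1* count leaves out reads from shared stretches and its level against other genes is uncertain. *Actg1* also overlaps the microRNA genes *Gm23419* and *Mir6935* on the same strand over 147 exonic bases.

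*Srf* (ENSMUSG00000015605) is at chr17:46548329-46556175, *Mkl1* (ENSMUSG00000042292) at chr15:81012281-81190757, *Tpm1* (ENSMUSG00000032366) at chr9:67022590-67049406 and *Tpm2* (ENSMUSG00000028464) at chr4:43514711-43523765, all on the minus strand. *Mkl2* (ENSMUSG00000009569) is at chr16:13256481-13417529, *Tpm3* (ENSMUSG00000027940) at chr3:90072649-90100902, *Tpm4* (ENSMUSG00000031799) at chr8:72134975-72153142 and *Cnn2* (ENSMUSG00000004665) at chr10:79988584-79996062, all on the plus strand. No window of *Srf*, *Mkl1*, *Tpm1*, *Tpm2* or *Cnn2* was shared, whereas 19.1% of *Tpm3* windows (most with *Tpm3-rs7*), 12.1% of *Tpm4* windows and 1.68% of *Mkl2* windows were. The exons of *Mkl1*, *Mkl2* and *Tpm4* overlap a gene on the opposite strand over 10, 162 and 134 bases. Since the strand setting of the counting is not given in the sources used here, reads of those stretches could belong to either gene.

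CArG boxes, the 10-base element that SRF binds, were searched on both strands in RefSeq promoter windows of GRCm38.p6, from 250 bases before to 50 bases after a gene's start. Windows were matched for 9 of the 10 genes, the exception being *Actb*. A box was found for 3 of these 9 genes, *Actg1*, *Srf* and *Cnn2*, and in no window of the other 6. Of all 27025 genes with a window, 1.81% held a box. Counted by window, it was 3 of 13 (23.1%) for these genes, against 1.63% of all 32851 promoter windows. The 120 bases before the RefSeq start of these 3 genes are shown because they hold the boxes, in capitals, read in the direction of the gene. The GENCODE genes placed above begin inside these stretches.
Actg1, chr11:120348496-120348615, minus strand: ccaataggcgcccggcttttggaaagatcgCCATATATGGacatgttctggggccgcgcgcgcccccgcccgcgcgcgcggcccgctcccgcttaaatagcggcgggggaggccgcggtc
Srf, chr17:46556163-46556282, minus strand: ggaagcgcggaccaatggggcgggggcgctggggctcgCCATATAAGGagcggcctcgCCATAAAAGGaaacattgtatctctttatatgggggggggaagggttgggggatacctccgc
Cnn2, chr10:79988480-79988599, plus strand: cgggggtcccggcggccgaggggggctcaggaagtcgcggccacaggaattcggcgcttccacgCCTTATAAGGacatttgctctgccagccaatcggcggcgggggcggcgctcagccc
The box begins 90 bases before the RefSeq start in *Actg1*, 82 and 62 bases before it in *Srf* and 56 bases before it in *Cnn2*. All these boxes lie nearer to the GENCODE starts. A match of letters is not evidence of SRF binding in these lungs, and boxes outside the window were not searched for.

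Between 19116971 and 32055306 reads were counted on genes per lung, and the 10 genes took 0.482% and 0.489% of them in wild-type and 0.441% and 0.462% in mutant lungs. Mutant and wild-type lungs were compared by edgeR's quasi-likelihood test on the whole table, and p-values were adjusted over all tested genes by the Benjamini-Hochberg method. An adjusted p under 0.05 was reached by 252 genes lower in the mutant (1.34% of those tested) and by 56 higher genes (0.298%). Without mutant lung 2 as many as 1826 genes passed, and without wild-type lung 2 only 191. *Myh10* itself was counted at 505.3 and 504.2 CPM in wild-type and 539.5 and 513.1 CPM in mutant lungs (log2 fold change 0.06, edgeR adjusted p = 0.662), and since the mutation replaces a base, this count does not check the genotype. *Xist* was high in wild-type lung 1 and mutant lung 2 (3916 and 4457 CPM) and low in wild-type lung 2 and mutant lung 1 (1.84 and 4.10 CPM). The Y chromosome gene *Ddx3y* was the reverse, at 0.44 and 0.09 CPM in the high *Xist* lungs and 181.5 and 198.2 CPM in the low ones. By these genes each genotype held a female and a male lung. The difference of each of the 10 genes is therefore also given within the high and the low *Xist* pair. Markers of lung epithelium summed to 8453 to 8660 CPM in wild-type and 5990 to 7037 CPM in mutant lungs, with 5 of 8 passing as lower and none higher. Most of that sum was *Sftpc*, a surfactant gene, which did not pass (edgeR adjusted p = 0.173). Among general epithelial genes, *Nkx2-1* and *Epcam* differed little, at log2 fold changes of 0.02 and -0.04, and their groups overlapped. *Cdh1* (E-cadherin) passed as lower, at 388.0 and 369.1 CPM in wild-type and 303.5 and 313.6 CPM in mutant lungs (log2 fold change -0.30, edgeR adjusted p = 0.0178). Leukocyte markers summed to 230 to 246 CPM in wild-type and 167 to 202 CPM in mutant lungs, with 1 of 4 tested, *Lyz2*, passing as lower. Most of that sum was *Lyz2* itself, at 186.0 and 173.3 CPM in wild-type and 116.9 and 148.1 CPM in mutant lungs. Among the other tested markers, *Ptprc* and *Csf1r* had both mutant lungs below both wild-type lungs, whereas the groups of *Cd68* overlapped. No marker of mesenchyme, endothelium or smooth muscle passed, and every marker list had counts for each of its genes in at least 1 lung.

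Both cytoplasmic actins lay lower in the mutant lungs than in the wild-type lungs, and *Actg1* alone among the 10 genes passed the test. *Actb*, the most abundant of the 10, was counted at 2161 and 2171 CPM (counts scaled by library size after TMM normalization) in wild-type and at 1840.0 and 1972 CPM in mutant lungs. The wild-type lungs lay close together, and both mutant lungs lay below them with a wider gap between the 2 mutants. For *Actb* the log2 fold change of -0.18 (SE 0.10) did not pass (edgeR adjusted p = 0.408). *Actg1* was counted at 210.3 and 214.1 CPM in wild-type and at 180.3 and 187.1 CPM in mutant lungs. Here too the groups did not overlap, and the spread within each was small against the gap between them. *Actg1* fell by 0.21 on the log2 scale (SE 0.05), 13.4% lower, and passed at an edgeR adjusted p of 0.0479. In these whole lobes, fewer cells of a type and less RNA per cell cannot be told apart.

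The call of *Actg1* was close to the threshold. It was lost in edgeR with DESeq2 size factors (adjusted p = 0.0507), with library totals (0.0600) and without genes of chromosomes X, Y and MT (0.0698). *Actg1* passed in 5 of the 8 fits with all lungs and no block. It did not pass with the high and low *Xist* pairs as blocks, a fit added after seeing the data. Without wild-type lung 1, wild-type lung 2 or mutant lung 1, the edgeR adjusted p was 0.160, 0.308 and 0.0668, and without mutant lung 2 it was 0.00217. *Actb* passed without mutant lung 2 (edgeR adjusted p = 0.0125) and in the DESeq2 Wald test (adjusted p = 0.0489). Within the high and the low *Xist* pair the log2 difference was -0.17 and -0.25 for *Actg1* and -0.13 and -0.24 for *Actb*. Since both mutant lungs lay below both wild-type lungs for these genes, any pairing of lungs gives a negative sign.

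**Figure D1:**
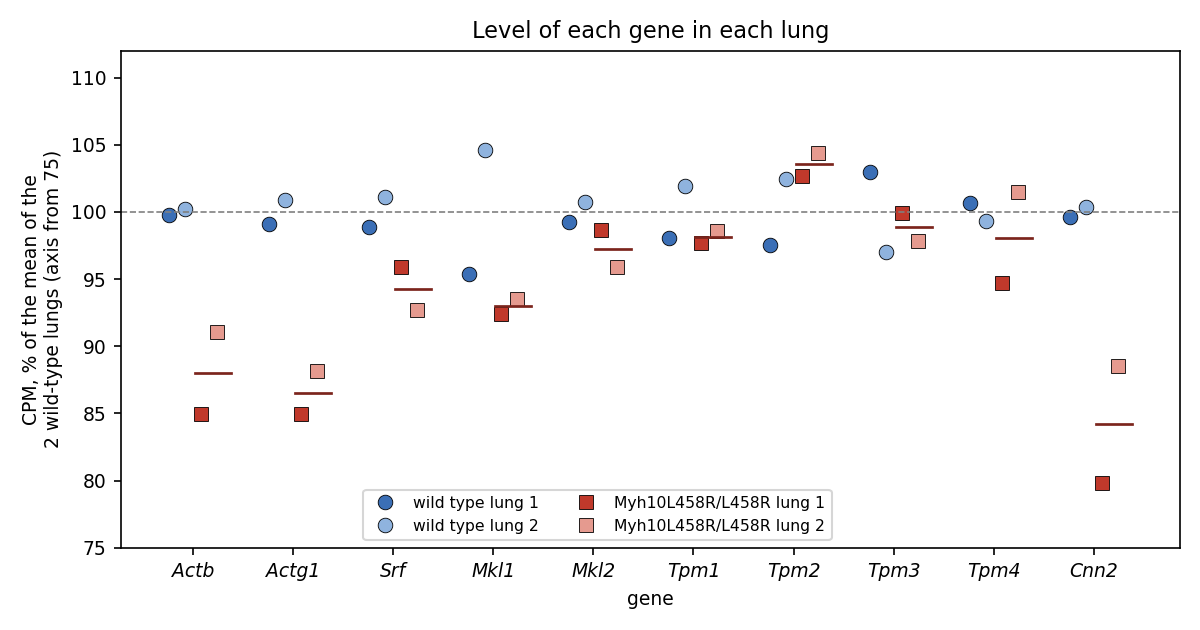
Level of the 10 genes in each lung as a percentage of the mean of the 2 wild-type lungs, in CPM, on an axis that starts at 75. Circles are wild-type and squares are mutant lungs, and bars mark the mutant mean; both squares lie below both circles for *Actb*, *Actg1*, *Srf*, *Mkl1*, *Mkl2* and *Cnn2*.

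The ratio of the actins within a lung does not depend on scaling between lungs. There were 10.3 and 10.1 *Actb* reads per *Actg1* read in wild-type lungs and 10.2 and 10.5 in mutant lungs. The groups overlapped, with a log2 difference of 0.02 (two-sided exact permutation p = 0.667). With 2 lungs against 2 this exact test cannot go below p = 0.333, so such ratios are a description. A shift between the actins was not detectable with these lungs.

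The transcripts of *Srf*, *Mkl1* and *Mkl2* differed little, and the activity of their proteins was not measured. *Srf*, which binds the CArG box, was counted at 88.3 and 90.3 CPM in wild-type and at 85.6 and 82.8 CPM in mutant lungs. Both mutant lungs lay below the wild-type lungs by a small margin, with a log2 fold change of -0.08 (SE 0.06, edgeR adjusted p = 0.512). *Mkl1* was counted at 62.3 and 68.3 CPM in wild-type and at 60.4 and 61.1 CPM in mutant lungs. Wild-type lung 1 of *Mkl1* was nearer to the mutant lungs than to wild-type lung 2, and the log2 fold change of -0.10 (SE 0.07) did not pass (edgeR adjusted p = 0.512). *Mkl2* was counted at 99.97 and 101.4 CPM in wild-type and at 99.3 and 96.6 CPM in mutant lungs. The 4 values of *Mkl2* were nearly level (log2 fold change -0.04, SE 0.06, edgeR adjusted p = 0.772). None of these 3 genes passed in any of the fits with all lungs or with a lung left out. Within a lung there were 1.60 and 1.48 *Mkl2* reads per *Mkl1* read in wild-type and 1.64 and 1.58 in mutant lungs, and the groups overlapped. Within the high and the low *Xist* pair the log2 difference was -0.09 and -0.08 for *Srf*, -0.03 and -0.18 for *Mkl1* and -0.05 and -0.03 for *Mkl2*.

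*Cnn2*, a calponin found in many non-muscle cells, had the largest difference of the 10 genes. It was counted at 496.5 and 500.1 CPM in wild-type and at 398.0 and 441.0 CPM in mutant lungs. The wild-type lungs were almost equal, and mutant lung 1 lay well below mutant lung 2, which in turn lay below both wild-type lungs. The log2 fold change was -0.25 (SE 0.06), 15.8% lower, at an unadjusted p of 0.00151 and an adjusted p of 0.0666 in edgeR, so it did not pass. *Cnn2* passed in 3 of 8 fits with all lungs and no block, among them the DESeq2 Wald test (adjusted p = 0.0108). Without mutant lung 2 the edgeR adjusted p was 0.000466, and without mutant lung 1 it was 0.293. Within the high and the low *Xist* pair the log2 difference was -0.17 and -0.33. The summed epithelial and leukocyte markers also lay lower in both mutant lungs, and so did those of mesenchyme, endothelium and muscle. Only the erythroid sums overlapped. Mesenchyme markers summed to 2886 to 2913 CPM in wild-type and 2766 to 2782 CPM in mutant lungs. Of these 7 markers 3 had both mutant lungs below both wild-type lungs, and 2 (*Tbx5* and *Pdgfra*) had both above. The shares of all tested genes were 24.3% and 23.9%. For endothelium the sums were 1233 to 1292 CPM and 1147 to 1189 CPM. Of the 8 epithelial markers 6, *Cdh1* among them, had both mutant lungs below both wild-type lungs, against 24.3% of all tested genes. The groups of *Nkx2-1* and *Epcam* overlapped. The part of all these cells in the values of *Cnn2*, *Actb* and *Actg1* was not tested. Summed smooth muscle markers, 783 to 836 CPM in wild-type lungs, were 762 to 765 CPM in mutant lungs. Of these 7 markers 2 had both mutant lungs below both wild-type lungs and none had both above, against 24.3% and 23.9% of all tested genes.

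**Figure D2:**
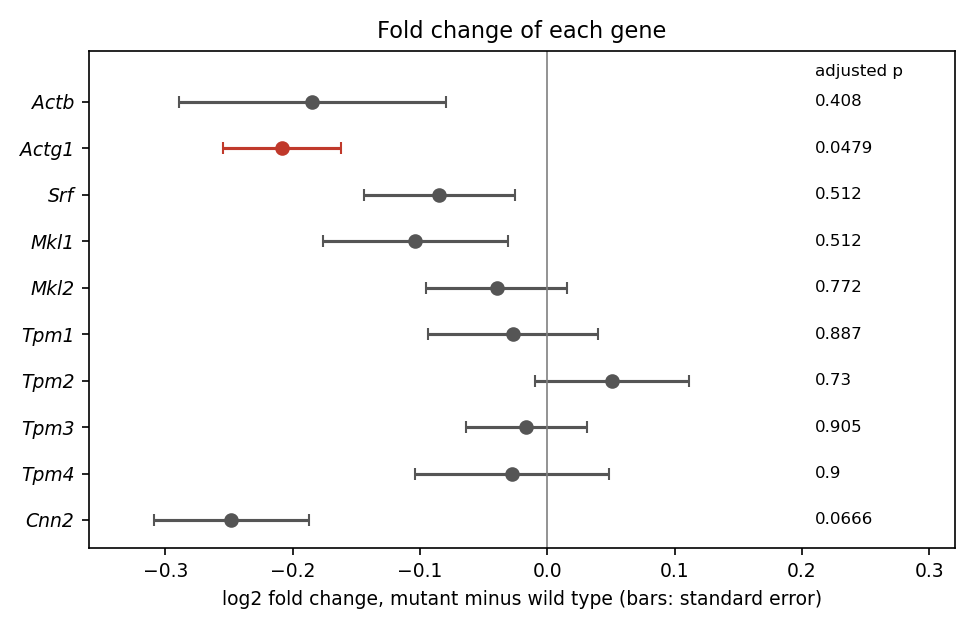
Log2 fold change of the 10 genes, mutant minus wild type, with its standard error as bars and the edgeR adjusted p at the right. *Actg1*, in red, is the gene that passed at 0.0479, and *Cnn2* at 0.0666 lies farthest from 0.

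The 4 tropomyosin genes differed little between the genotypes. *Tpm1*, a tropomyosin of muscle and stress fibers, was counted at 637.5 and 662.5 CPM in wild-type and at 634.9 and 640.9 CPM in mutant lungs. The *Tpm1* groups overlapped, with a log2 fold change of -0.03 (SE 0.07, edgeR adjusted p = 0.887). *Tpm4*, which is made in most non-muscle cells, was counted at 806.8 and 795.9 CPM in wild-type and at 758.9 and 813.2 CPM in mutant lungs. Mutant lung 1 was the lowest and mutant lung 2 the highest of the *Tpm4* values, and the log2 fold change was -0.03 (SE 0.08, edgeR adjusted p = 0.900). *Tpm3*, also of non-muscle cells, was counted at 232.2 and 218.8 CPM in wild-type and at 225.4 and 220.7 CPM in mutant lungs. Both mutant values of *Tpm3* lay between the wild-type ones (log2 fold change -0.02, SE 0.05, edgeR adjusted p = 0.905). *Tpm2*, a tropomyosin of smooth and skeletal muscle, was counted at 82.5 and 86.7 CPM in wild-type and at 86.8 and 88.3 CPM in mutant lungs. It was the gene of the 10 with a positive log2 fold change, 0.05 (SE 0.06, edgeR adjusted p = 0.730), and the nearest values of the groups were almost the same. No tropomyosin passed in any fit, and the sign of the difference of *Tpm3* turned with library totals and with a lung left out, as did that of *Tpm1* and *Tpm4* with a lung left out. Between the high and the low *Xist* pair the sign also differed for these 3 genes, with log2 differences of 0.01 and -0.06 for *Tpm1*, -0.07 and 0.04 for *Tpm3* and 0.01 and -0.07 for *Tpm4*. For *Tpm2* they were 0.10 and 0.003.

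Of the 10 genes, 1 passed as lower and none as higher, where the shares over all tested genes were 1.34% and 0.298%. At an unadjusted p under 0.05 there were 2 lower genes (*Actg1* and *Cnn2*) and no higher gene in edgeR, against 9.02% and 7.52% of all genes. The DESeq2 Wald test called 3 lower and none higher, against 258 lower and 85 higher of all 18763 tested genes. The log2 fold change was negative for 9 genes and its median was -0.06, against 49.5% negative and a median of 0.00 over all genes. Both mutant lungs lay below both wild-type lungs for 6 genes and above them for 1, where 24.3% and 23.9% of all tested genes did so. The 10 genes were chosen with earlier results of these data known, so these shares are a description.

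**Figure D3:**
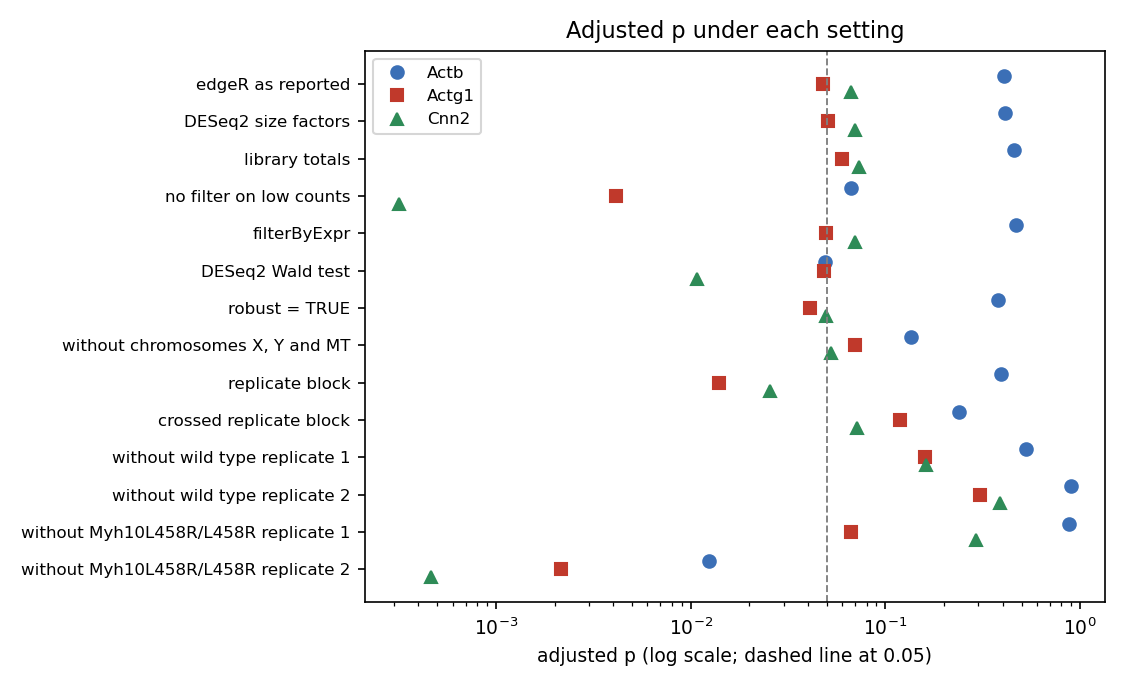
Adjusted p of *Actb*, *Actg1* and *Cnn2* under each setting, on a log scale with a dashed line at 0.05. *Actg1* lies near the line in most fits, at 0.00217 to 0.308 with a lung left out, and all 3 genes lie to its left without mutant lung 2.

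Levels can be compared between genes only per length, here as CPM per kb of exon, the union of the annotated exons. In wild-type lungs *Actb* came first with a mean of 808.5 CPM per kb (SD 2.72, n = 2), followed by *Tpm4* at 364, *Cnn2* at 203 and *Tpm1* at 100.2 CPM per kb. *Actg1* followed with 79.8, *Tpm3* with 37.1, *Srf* with 30.9 and *Tpm2* with 29.1 CPM per kb, and *Mkl2* and *Mkl1* were lowest at 11.2 and 10.7 CPM per kb. Over the 4 lungs the ranges of *Srf* and *Tpm2* overlapped, and so did those of *Mkl2* and *Mkl1*, whereas all other neighbours in this order were apart in every lung. The order rests on the length used. Divided by the longest transcript *Tpm1* came above *Cnn2* (225 against 203 CPM per kb), *Tpm2* above *Srf* and *Mkl1* above *Mkl2*, and divided by the exon length that is not shared *Actg1* came above *Tpm1*.

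**Figure D4:**
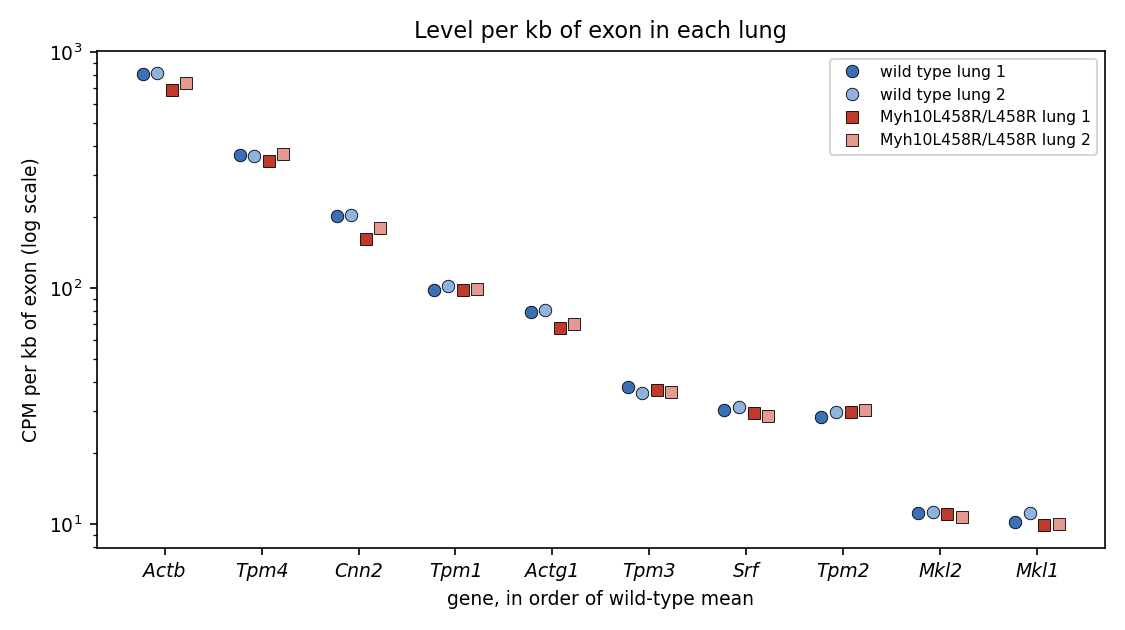
CPM per kb of exon of the 10 genes in each lung, on a log scale, with genes in the order of their wild-type mean. *Actb* lies highest, at 687 to 810 CPM per kb over the 4 lungs, and *Mkl1* lowest, at 9.88 to 11.2 CPM per kb.

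*Tpm4* made up most of the tropomyosin level per kb of exon, 69.0% and 68.3% in wild-type and 67.6% and 69.1% in mutant lungs. *Tpm1* took 18.5% and 19.3% in wild-type and 19.2% and 18.5% in mutant lungs, and *Tpm3* took 7.19% and 6.80% against 7.27% and 6.78%. For these 3 genes the shares of the groups overlapped. The *Tpm2* share was 5.34% and 5.63% in wild-type and 5.86% and 5.68% in mutant lungs, with both mutant lungs above both wild-type lungs (two-sided exact permutation p = 0.333, the smallest this design allows). Divided by the longest transcript instead, *Tpm4* took 51.2% and *Tpm1* 30.6% of the wild-type tropomyosin level, and the mutant means again lay near, at 51.0% and 30.5%.

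Summed over both genes, the actin level per kb was 1.67 and 1.68 times the summed tropomyosin level in wild-type lungs and 1.48 and 1.51 times in mutant lungs. The ratio was lower in both mutant lungs, by 0.16 on the log2 scale (two-sided exact permutation p = 0.333, the smallest possible). The ratio of *Cnn2* to the summed tropomyosins was also lower in both mutant lungs, with 0.380 and 0.384 in wild-type and 0.318 and 0.335 in mutant lungs (exact permutation p = 0.333). Both ratios were chosen after the values of the single genes were seen, and both inherit the differences of *Actb* and *Cnn2* described above.

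Genes that work around these 10 were described in 7 lists, which hold 183 genes other than the 10, and 181 of them were tested. Of these 6 passed as lower and 1 as higher in edgeR, against 1.34% and 0.298% of all tested genes. At an unadjusted p under 0.05 there were 46 lower and 6 higher genes, against 9.02% and 7.52% of all genes. Both mutant lungs lay below both wild-type lungs for 90 of the 181, or 49.7%, against 24.3% of all genes. The median log2 fold change over the 181 genes was -0.07, and 132 (72.9%) were negative, against 49.5% of all genes. The lists were chosen with earlier results of these data known, so these shares, and those of each list below, are a description. Without mutant lung 2 more list genes passed than with all lungs, and so did more of all tested genes, which bears on each list below.

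Among 27 tested SRF cofactors and genes that link actin to SRF, the median log2 fold change was 0.01. At an unadjusted p under 0.05 edgeR had 4 lower and 4 higher, against 9.02% and 7.52% of all genes. *Scai*, whose protein binds MKL proteins and represses SRF targets, was counted at 131.7 and 119.3 CPM in wild-type and 172.0 and 155.3 CPM in mutant lungs. Both mutant lungs lay above both wild-type lungs, and *Scai* rose by 0.38 on the log2 scale (SE 0.06, edgeR adjusted p = 0.0155), in 8 of 8 fits with all lungs and in each of the 4 with a lung left out. None passed as lower, and none did in the DESeq2 Wald test, whereas leaving out mutant lung 2 gave 1 lower and 4 higher genes. Lowest in adjusted p among the rest was *Rhob*, a small GTPase that signals to actin, at 169.6 and 178.6 CPM against 142.2 and 158.3 CPM (log2 fold change -0.21, edgeR adjusted p = 0.0969).

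The 30 cytoskeletal targets of MKL and SRF held no gene that passed in edgeR or in the DESeq2 Wald test. At an unadjusted p under 0.05 edgeR had 5 lower and none higher, where 9.02% and 7.52% of all genes were. With no filter on low counts 4 passed as lower, without mutant lung 2 there were 3, and with robust = TRUE, without mutant lung 1 or without genes of chromosomes X, Y and MT there was 1. The log2 fold change was negative for 26 genes (86.7%, against 49.5% of all genes) with a median of -0.09, and both mutant lungs lay below both wild-type lungs for 16 (53.3%, against 24.3%). *Ctgf*, which encodes a secreted matricellular protein, was counted at 48.7 and 50.3 CPM in wild-type and 41.7 and 38.7 CPM in mutant lungs (log2 fold change -0.30, edgeR adjusted p = 0.0762). *Wdr1*, a partner of cofilin in taking filaments apart, was counted at 227.7 and 213.6 CPM in wild-type and 192.0 and 201.1 CPM in mutant lungs (log2 fold change -0.17, edgeR adjusted p = 0.121).

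The 17 immediate early genes driven by SRF with TCFs had the most negative median of the 7 lists, -0.25. Of the 17 genes, 16 (94.1%) were negative, against 49.5% of all genes. Of them 2 passed as lower and none as higher in edgeR and in the DESeq2 Wald test, where 1.34% of all genes passed as lower. At an unadjusted p under 0.05 edgeR had 10 lower and none higher, against 9.02% and 7.52% of all genes. Without mutant lung 2 there were 5 that passed, all lower, and with no filter on low counts 6. *Ier3*, an early response gene tied to cell survival, was counted at 26.6 and 30.8 CPM in wild-type and 17.7 and 16.5 CPM in mutant lungs, and fell by 0.74 on the log2 scale (SE 0.09, edgeR adjusted p = 0.00431). *Btg2*, which restrains proliferation, was counted at 229.6 and 237.9 CPM in wild-type and 181.8 and 193.3 CPM in mutant lungs, and fell by 0.32 on the log2 scale (SE 0.05, edgeR adjusted p = 0.0108). Both passed in 8 of 8 fits with all lungs and with each lung left out.

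**Figure D5:**
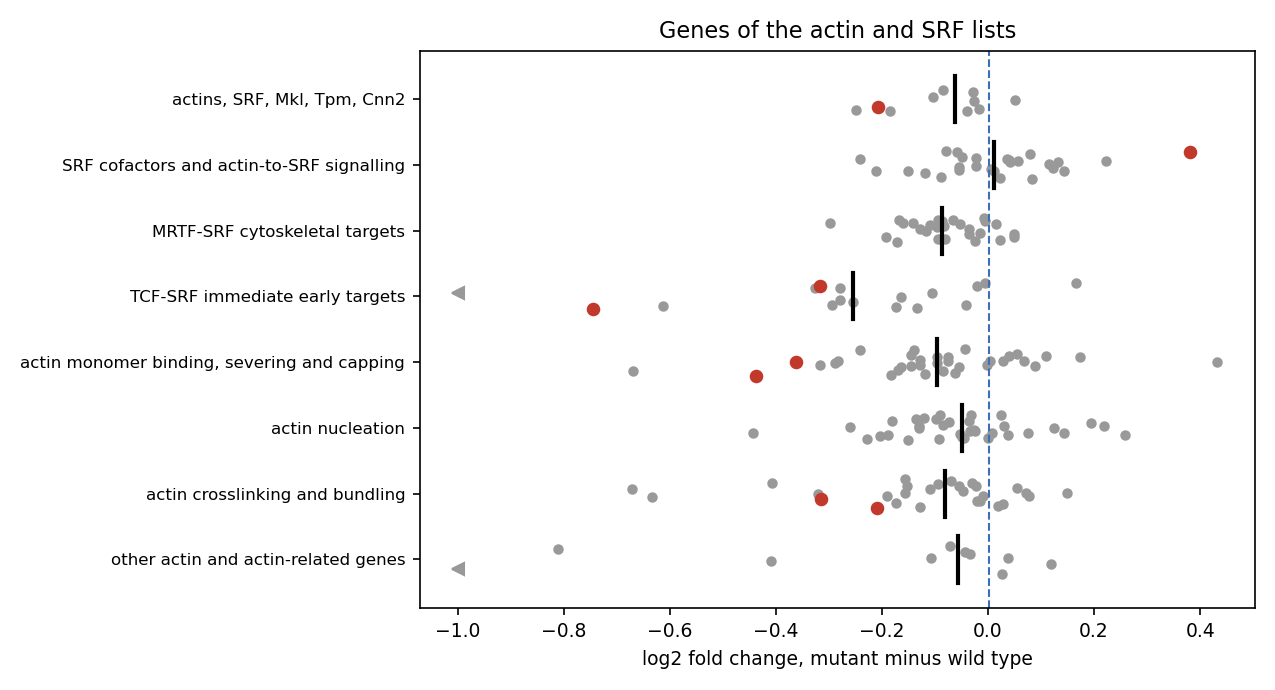
Log2 fold change, mutant minus wild type, of the 10 genes (top) and of the tested genes of each list, with black bars at the medians and the dashed line at the median of all tested genes. Red points passed the edgeR test, and triangles mark the 2 genes beyond a log2 fold change of -1.0; the median of the immediate early list, -0.25, lies farthest to the left.

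Of 34 genes that bind actin monomers, sever filaments or cap their ends, 2 passed as lower and none as higher. Over all tested genes the shares were 1.34% and 0.298%. The median log2 fold change was -0.10, with 25 negative (73.5%, against 49.5% of all genes). More genes of this list passed as lower without mutant lung 2, where more of all tested genes passed too. *Gsn* (gelsolin), which severs and caps filaments, was counted at 404.1 and 386.8 CPM in wild-type and 288.3 and 327.3 CPM in mutant lungs, and fell by 0.36 on the log2 scale (SE 0.06, edgeR adjusted p = 0.0178). *Tmod1*, which caps the slow-growing end of filaments coated with tropomyosin, was counted at 17.5 and 15.9 CPM in wild-type and 11.7 and 12.9 CPM in mutant lungs, and fell by 0.44 on the log2 scale (SE 0.09, edgeR adjusted p = 0.0420). *Gsn* passed with each lung left out, whereas *Tmod1* was lost without wild-type lung 1 (edgeR adjusted p = 0.198), without mutant lung 1 (0.154) and in the DESeq2 Wald test (0.0939). *Tmod1* is also a gene of cardiac muscle and erythroid cells, whose markers passed as lower in 5 of 9 and 2 of 6 tested genes. Their summed levels were 274 to 341 CPM against 202 to 223 CPM and 4259 to 5348 CPM against 3759 to 4274 CPM, and their part in the *Tmod1* value was not tested.

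None of 35 genes of actin nucleation passed in edgeR or in the DESeq2 Wald test, and their median log2 fold change was -0.05. At an unadjusted p under 0.05 edgeR had 8 lower and 1 higher, against 9.02% and 7.52% of all genes. The list had 6 genes that passed as lower and 1 as higher without mutant lung 2, and with no filter on low counts 1 each. *Cobl*, a nucleator with actin-binding WH2 domains, was counted at 49.5 and 49.3 CPM in wild-type and 40.8 and 41.6 CPM in mutant lungs (log2 fold change -0.26, edgeR adjusted p = 0.0987). *Daam2*, a formin, was counted at 155.1 and 139.6 CPM in wild-type and 171.8 and 165.5 CPM in mutant lungs (log2 fold change 0.19, edgeR adjusted p = 0.115). These 2 genes, which had the lowest adjusted p of the list, lay on opposite sides.

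Among 28 genes that crosslink and bundle filaments or tie them to membranes, 2 passed as lower and none as higher. Over all tested genes the shares were 1.34% and 0.298%. The log2 fold change was negative for 22 (78.6%, against 49.5% of all genes), with a median of -0.08. *Dbnl*, an actin-binding adaptor of endocytosis, was counted at 109.9 and 102.1 CPM in wild-type and 82.1 and 88.4 CPM in mutant lungs, and fell by 0.31 on the log2 scale (SE 0.06, edgeR adjusted p = 0.0311). *Ezr* (ezrin), which links actin to the apical membrane of epithelial cells, was counted at 233.8 and 237.7 CPM in wild-type and 202.4 and 205.2 CPM in mutant lungs, and fell by 0.21 on the log2 scale (SE 0.04, edgeR adjusted p = 0.0379). Without mutant lung 2, 5 genes of the list passed as lower, and without wild-type lung 1 none did. *Dbnl* was lost without wild-type lung 1 (edgeR adjusted p = 0.213). *Ezr* was lost without wild-type lung 1 (0.148), without wild-type lung 2 (0.300), with library totals (0.0521) and without genes of chromosomes X, Y and MT (0.0636). Of the 8 epithelial markers 5 passed as lower, *Cdh1* among them, as *Ezr* did. *Nkx2-1*, *Epcam* and *Sftpc* did not pass, and the part of epithelial cells in the *Ezr* value was not tested.

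Of 10 other actin and actin-related genes tested, none passed in edgeR. The DESeq2 Wald test called 1 as lower, against 258 lower and 85 higher of all 18763 tested genes. At an unadjusted p under 0.05 edgeR had 2 lower and none higher, against 9.02% and 7.52% of all genes. Without wild-type lung 1, mutant lung 1 or mutant lung 2, 1 gene passed as lower. The striated muscle actins had the lowest adjusted p. *Actc1*, the cardiac actin, was counted at 64.2 and 79.0 CPM in wild-type and 56.6 and 51.1 CPM in mutant lungs (log2 fold change -0.41, edgeR adjusted p = 0.0575). *Acta1*, the skeletal muscle actin, was near the limit of counting, with 14 and 8 reads in wild-type and 3 and 9 reads in mutant lungs (edgeR adjusted p = 0.232). *Actc1* is itself a marker of cardiac muscle. All 9 tested genes of that marker list had both mutant lungs below both wild-type lungs, against 24.3% of all tested genes.

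The boxes shown above for *Actg1*, *Srf* and *Cnn2* were set beside those of all genes. Of 12245 tested genes matched to a promoter window, 195 held a CArG box, and 7 of these (3.59%) passed as lower and 1 as higher. Among the 12050 genes without a box, 185 (1.54%) passed as lower and 39 as higher. *Ier3* and *Btg2*, which passed as lower in the immediate early list, held no box in their windows. Median log2 fold changes were -0.03 with and -0.01 without a box, and both mutant lungs lay below both wild-type lungs for 34.9% and 27.1%. The 7 lower genes with a box were *Actg1* and 6 genes outside the lists of actin and SRF genes, among them the epithelial markers *Ager* and *Hopx* and the cardiac marker *Myl7*. These shares are a description, and no test of the difference was made. Of the 3 genes whose promoters are shown, all had both mutant lungs below both wild-type lungs, and so did *Mkl1* and *Mkl2*, whose windows held no box.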

How the data were processed

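RNA-seq was performed on left lung lobes of 2 wild-type and 2 Myh10L458R/L458R mice at E17. The values deposited by the authors are raw read counts for each Ensembl gene in each lung, without normalization. Stranded mRNA libraries were sequenced as single reads of 75 bases, trimmed with Reaper, aligned to mm10/GRCm38 with STAR 2.4.0a and counted on exons with featureCounts 1.5.1, per the authors' methods and processing notes. Reads that could not be given to a single gene and a single place in the genome were not counted. This removes reads from stretches that genes share, and the strand setting of the counting is not given in the sources used here.

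Genes averaging 5 or more counts per lung were tested with edgeR 4.0.16 in R 4.3.3 (TMM scaling, glmQLFit with robust = FALSE, glmQLFTest, genotype as the only term) on the whole table, with Benjamini-Hochberg adjustment and a threshold of 0.05. CPM were computed with TMM-scaled library sizes. Ratios and shares within a lung were compared with an exact permutation test (scipy 1.17.1). Lengths, exon overlaps and shared windows were taken from GENCODE M21, and promoter windows from RefSeq. Depth ranged from 19116971 to 32055306 reads, so that 2 lungs per genotype, rather than depth, set the precision. Counts of the lungs within a genotype differed by more than chance sampling of reads (chi-square divided by its degrees of freedom 7.47 and 12.6). These values include *Xist*, with 89703 and 35 reads in wild-type and 114 and 143443 reads in mutant lungs. The large part of *Xist* and other sex-linked genes in them was not taken out. Each lung was treated as a replicate.

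The 10 genes and the lists were chosen with earlier results of these data known. Named from each list were the genes that passed, at most 6, or, where fewer than 2 passed, the 2 with the lowest adjusted p. Alternatives were scaling by DESeq2 size factors or by library totals, no filter on low counts, filterByExpr, the DESeq2 1.42.0 Wald test, robust = TRUE, leaving out chromosomes X, Y and MT, the replicate number as a block, other gene lengths and each lung left out in turn.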

Additional observations from a re-analysis of the deposited data

How the results depend on the processing

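Of the 10 genes, 1 passed in the test as reported, 0 with DESeq2 size factors, with library totals or without chromosomes X, Y and MT, 2 with no filter on low counts or with robust = TRUE, and 3 with the DESeq2 Wald test. With a lung left out, which leaves 1 lung in a genotype that is assumed to vary like the others, 0 to 3 passed. Over all tested genes 308 passed, against 1162 with no filter and 474 with robust = TRUE, and 191 to 1826 with a lung left out. The share of lower genes among calls was 81.8%, but 59.2% with no filter, 67.6% with library totals, which moved the median of all genes to 0.02, and 71.5% with robust = TRUE. For the lists 7 genes passed, against 26 with no filter and 5 to 33 with a lung left out. The direction turned for *Tpm3* with library totals (0.0037 on the log2 scale), for *Tpm3* without wild-type lung 1 or mutant lung 2 (0.00079), for *Tpm1* without wild-type lung 2 and for *Tpm4* without mutant lung 1, and the cause was not tested. With a lung left out the log2 fold change ranged from -0.055 to 0.00097 for *Tpm1*, from -0.058 to 0.027 for *Tpm3* and from -0.077 to 0.024 for *Tpm4*. Among the single genes, 275 values kept their direction and side of the threshold, 29 newly passed and 16 no longer passed. With other gene lengths, the mutant minus wild-type differences of the tropomyosin shares moved by less than the spread between lungs. Leaving out 1 of 2 lungs always moves a group mean by less than the spread of that group. Leaving out a lung therefore could not check these shares or the *Actb* to *Actg1* ratio in this way. The *Tpm4* share was 67.6% in mutant lung 1 and 69.1% in mutant lung 2, on opposite sides of the wild-type mean of 68.6%. The shares themselves depend on the length, and that of *Tpm4* in wild-type lungs was 68.6% with the union of exons and 51.2% with the longest transcript.

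Same-numbered lungs are not stated to be related, and their deviations had a correlation of -0.35 across genes. With the replicate block 710 of all tested genes passed, 2 of the 10 genes and 14 list genes. With the numbers crossed, added after seeing the data, 415, 0 and 9 passed. The crossed blocks are the high and the low *Xist* pair, and *Actg1* did not pass with them.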
